A study of Mus musculus with 6 samples.

Results

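The 6 genes described here, Rgs1, Rgs2, Rgs3, Rgs10, Rgs14 and Rgs16, encode regulators of G protein signalling (RGS proteins). Their peaks of open chromatin were taken from ATAC-seq, an assay that tags accessible DNA with a transposase. A peak belonged to a gene when its midpoint lay in the gene body, or between genes with that gene as the nearest protein-coding gene within 100 kb (RefSeq, mm10). By this rule 95 of 74440 peaks belonged to the 6 genes, 49 of 38258 in the WT list and 46 of 36182 in the KO list.

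The cells were regulatory T (Treg) cells, isolated as a CD4+YFP+ sort from spleen and draining lymph nodes of mice on the C57BL/6 background. All animals carried Foxp3-IRES-YFP-Cre, which expresses YFP and Cre recombinase from Foxp3, the gene of the lineage-defining factor of Treg cells. The WT group was Bcl11b w/w and the KO group Bcl11b f/f, so that Cre acts on the floxed Bcl11b gene in cells that express Foxp3. Each group had 3 samples of 100000 cells, and the labels give neither the age of the animals nor whether animals were pooled. Each group was represented by 1 peak list for its 3 samples together. The lists carry no read counts, so depth and replicate spread are unknown, and every difference below is given without a p-value.

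RGS proteins shorten signalling by G protein coupled receptors. They bind the active, GTP-loaded alpha subunit of a heterotrimeric G protein and speed up its GTP hydrolysis. In lymphocytes they are best known for limiting the response to chemokines and other migration cues. Rgs1, Rgs2, Rgs3 and Rgs16 belong to the R4 group of mostly small RGS proteins, whereas Rgs10 and Rgs14 belong to the R12 group, in which Rgs14 has additional Ras-binding and GoLoco domains.

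A peak is called shared where a peak of the other list overlaps it by at least 1 bp, and WT-only or KO-only where none does. The absence of a call does not mean that the chromatin was closed. The rows of each list run in an order that follows the peak numbers, and the place of a peak is given as the percentage of rows from the top. That the order ranks peak strength is inferred and not stated in the labels. Accessibility per cell and the number of cells with an open site cannot be told apart in bulk samples.

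The marker genes of the sorted population had peaks in both lists. Of 7 Treg markers, 6 had a peak in the gene or within 1 kb of its ends in each list, Foxp3, Il2ra, Ctla4 and Ikzf2 among them, and Tnfrsf18 had none. All 7 general T cell markers had one in each list. Among other cell types the numbers were 1 of 2 for CD8 T cells in each list, 2 of 5 for myeloid cells in each list, 2 of 4 for NK cells in each list, and 2 of 3 (WT) and 1 of 3 (KO) for erythroid cells. Peaks were absent in both lists at Cd8a, Cd79a, Ms4a1, Lyz2, Csf1r, Itgam, Ncr1 and Hbb-bt. They were present in both lists at Cd8b1, Pax5, Cd14, Spi1, Eomes and Klf1. The share of all genes with a peak by this 1 kb rule is not given here. The numbers of peaks at markers of other cell types differed between the lists at Cd79b (0 in WT, 1 in KO), Pax5 (2 and 4), Klrk1 (0 and 2), Klrb1c (1 and 0) and Gata1 (1 and 0). The NK cell genes with a peak were thus not the same in both lists. Treg and T cell markers differed as well, at Ikzf2 (7 in WT, 11 in KO), Ctla4 (3 and 2), Cd4 (1 and 2), Lck (3 and 4) and Cd2 (2 and 3). The part of other cell types in any difference below was not tested.

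The promoter table of RefSeq (GRCm38.p6, the coordinates of mm10) held 5 start sites for 4 of the 6 genes, Rgs2, Rgs16, Rgs10 and Rgs3. Shown are the 250 bases before the 4 of these starts that a peak touches, because they show where the called peak sits on each promoter. They are written 5′ to 3′ on the strand of the gene, and capitals mark the bases inside the peaks of both lists, or inside the WT-only peak in the case of Rgs3. The Rgs2 window is chr1:144004150-144004399 (minus strand), that of Rgs16 chr1:153740103-153740352 (plus strand), that of Rgs10 chr7:128418173-128418422 (minus strand), and that of Rgs3 chr4:62619422-62619671 (plus strand).
Rgs2: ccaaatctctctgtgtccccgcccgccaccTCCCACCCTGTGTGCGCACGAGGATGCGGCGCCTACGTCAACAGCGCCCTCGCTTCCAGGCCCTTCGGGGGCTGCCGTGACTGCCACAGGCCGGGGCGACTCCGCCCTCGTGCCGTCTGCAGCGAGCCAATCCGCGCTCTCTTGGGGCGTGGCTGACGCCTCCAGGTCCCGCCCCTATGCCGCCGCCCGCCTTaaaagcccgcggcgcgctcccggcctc
Rgs16: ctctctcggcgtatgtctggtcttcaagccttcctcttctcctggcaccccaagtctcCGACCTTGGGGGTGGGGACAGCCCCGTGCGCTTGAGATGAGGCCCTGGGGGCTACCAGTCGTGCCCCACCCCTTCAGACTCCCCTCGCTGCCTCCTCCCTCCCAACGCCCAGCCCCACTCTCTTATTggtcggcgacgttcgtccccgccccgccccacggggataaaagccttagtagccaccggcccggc
Rgs10: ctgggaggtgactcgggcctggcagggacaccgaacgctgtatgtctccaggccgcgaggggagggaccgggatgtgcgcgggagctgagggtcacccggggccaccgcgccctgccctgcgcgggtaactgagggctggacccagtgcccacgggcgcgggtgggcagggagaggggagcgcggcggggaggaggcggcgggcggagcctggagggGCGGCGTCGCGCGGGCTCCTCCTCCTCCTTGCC
Rgs3: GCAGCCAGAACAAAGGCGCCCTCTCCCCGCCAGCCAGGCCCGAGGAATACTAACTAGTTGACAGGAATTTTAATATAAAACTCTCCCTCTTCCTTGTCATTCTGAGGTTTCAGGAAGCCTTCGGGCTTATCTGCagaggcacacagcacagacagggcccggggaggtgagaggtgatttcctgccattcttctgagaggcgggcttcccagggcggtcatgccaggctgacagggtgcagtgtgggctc

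At Rgs2 the peaks of both lists lay within this window, with 219 (WT) and 193 (KO) of its 250 bases. These numbers are the set widths of the peaks in each list. At Rgs16 the WT peak covered 185 and the KO peak 192 of the bases, with 127 in both. At Rgs10 the peaks sat across the start site and covered only 63 (WT) and 33 (KO) of the bases before it. The Rgs3 start shown is an internal one, at position 62619672, where a WT-only peak covered 134 bases and the KO list had no peak. The window before the other Rgs3 start, at 62559847, had no peak in either list.

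The windows were searched on both strands for 9 motifs, of which the GC box alone was found. The letters were AP-1 TGANTCA, CRE TGACGTCA, ETS CCGGAA, RUNX TGTGGT, TCF/LEF CTTTGAT, forkhead TGTTTAC and GC box GGGCGG, together with the longer motifs of NF-kB and SRF. The GC box is the recognition sequence of Sp/KLF factors, and 32.7% of 32851 promoters of the same length hold it. It was present 4 times at Rgs2, 2 times at Rgs16 and at Rgs10, and 1 time at the internal Rgs3 start, with the 2 matches of Rgs16 overlapping by 1 base. At Rgs2, 3 of the 4 matches, with their nearest bases 33, 47 and 114 bases before the start site, lay inside the peaks of both lists, and the fourth, at 227, lay inside the WT peak only. At Rgs16 the KO peak held both matches and the WT peak neither, because the WT peak ended farther from the start. At Rgs10 the WT peak held both matches, and the KO peak held neither in full. Peaks have a set width of 219 bp in the WT list and 193 bp in the KO list. Which matches a peak holds depends on this width and on its placement, and is not a measured change in accessibility. The promoters of Rgs10, Rgs2 and Rgs16 were GC-rich, at 76.4%, 72.4% and 66.4%, against a median of 52.4% over all promoters (quartiles 45.2 and 61.2%). Both Rgs3 windows lay within these quartiles, at 56.8% for the internal start and 48.4% for the start at 62559847. The other 8 motifs are held by 0.0609% (SRF) to 14.0% (RUNX) of all promoters, so their absence from 5 windows says only that these letters are not there.

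Most peaks of the RGS genes were called in both genotypes. Of the 49 WT peaks, 35 were shared (71.4%, exact Clopper-Pearson 95% interval 56.7 to 83.4%, counting error only) and 14 were WT-only (28.6%), against 29.5% WT-only over all WT peaks. Of the 46 KO peaks, 35 were shared (76.1%, 61.2 to 87.4%) and 11 were KO-only (23.9%), against 25.4% over all KO peaks. Both shares lay near the background. KO-only peaks made up 44.0% of the genotype-specific peaks at these genes (24.4 to 65.1%) and 45.4% over all assigned peaks. Of the 6 genes, 1 had more KO-only peaks (20.2% of 14523 genes with a peak do), 3 had more WT-only peaks (26.7% do) and 2 had no genotype-specific peak (42.8% do).

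**Figure D1:**
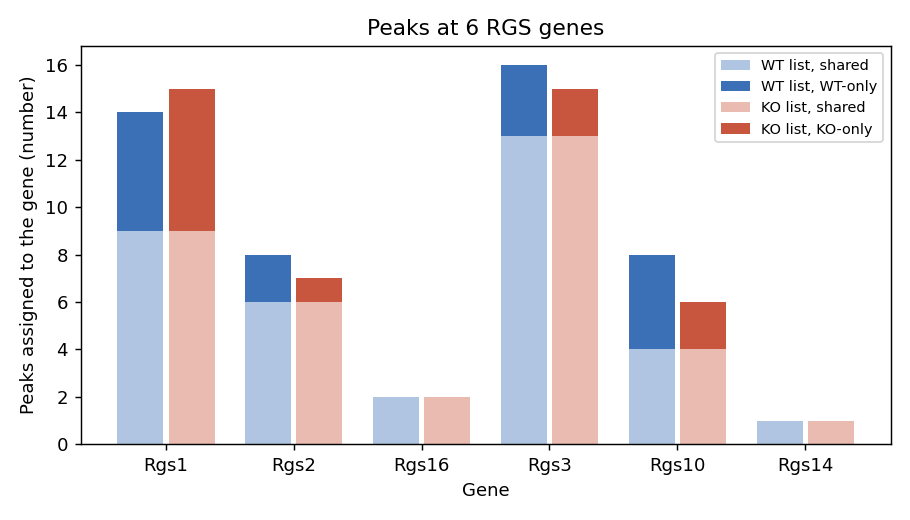
Number of peaks assigned to each RGS gene (y axis) in the WT list (blue) and the KO list (red), with shared peaks pale and genotype-specific peaks dark. Rgs1 and Rgs3 hold most peaks, with 14 and 16 in the WT list and 15 each in the KO list, and Rgs16 and Rgs14 hold shared peaks only.

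Rgs1, which restrains chemokine receptor signalling in activated lymphocytes, is a short gene of 4436 bp on chr1:144244669-144249104. It had 14 WT and 15 KO peaks, none with its midpoint in the gene body. Of all genes with a peak, 0.978% had at least as many WT peaks and 0.544% at least as many KO peaks. All but 2 peaks of each list lay at or beyond the upper end of the gene, out to 88.7 kb, in the space before Rgs21. The peak at the upper gene end (WT chr1:144249078-144249296, KO chr1:144249091-144249283) was shared and stood at 6.07% of the WT list and 1.68% of the KO list. A second shared peak high in both lists lay 81.5 kb beyond the gene, at chr1:144330528-144330746 in the WT list, with places of 7.89% (WT) and 2.04% (KO).

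The highest-placed genotype-specific peak of the RGS genes was a KO-only peak at Rgs1. It lay at chr1:144250572-144250764, 1.56 kb beyond the upper gene end, on row 1673 of the KO list (4.62%). The nearest WT peak was the gene-end peak, 1275 bp away. KO-only peaks are rare so high in the list: they made up 3.48% of the 1809 peaks in its first 5%. Among the 6639 KO-only peaks with no WT peak within 500 bp it was number 7 from the top. The first 5% of the KO list held 9 KO-only peaks of that kind, and the first 5% of the WT list held 0 WT-only peaks with no KO peak within 500 bp.

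The 9 shared peaks of Rgs1 stood nearer the top in the KO list in 8 cases. Places are compared here among the shared peaks of each list, so that both rankings have nearly the same length. Beside the gene, the peak 1.03 kb beyond the lower end stood at 34.4% (WT) and 12.1% (KO), and the gene-end peak at 8.35% and 2.2%. Farther out, the peak at 7.58 kb stood at 53.3% and 35.3%, the one at 24.1 kb at 28.2% and 21.4%, and the one at 51.8 kb at 64.0% and 51.8%. The KO place was nearer the top at each of these 5 sites, by 6.15 to 22.3 points. The largest difference, 27.6 points, was at chr1:144308427-144308645 (WT list, 36.6% against 9.02%), 59.4 kb from the gene. A neighbour at 58.0 kb was the exception, at 29.4% (WT) and 38.5% (KO). The peak 29.1 kb below the gene stood at 81.5% and 60.5%, and that at 81.5 kb above it at 10.8% and 2.67%.

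Across all 26975 shared peaks, 47.3% stood nearer the top in the KO list by this measure. Of 1023 genes with at least 5 shared peaks, 3.62% had a share of such peaks as high as that of Rgs1, and 6.06% had a median difference at least as large as its 12.2 points. Rgs1 was singled out after its values were seen, and a difference in place is not a measured change in accessibility. The count stayed at 8 of 9 with places in the whole list (where 37.9% of all shared peaks stood nearer the top in KO), by row number or by peak number within the chromosome.

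**Figure D2:**
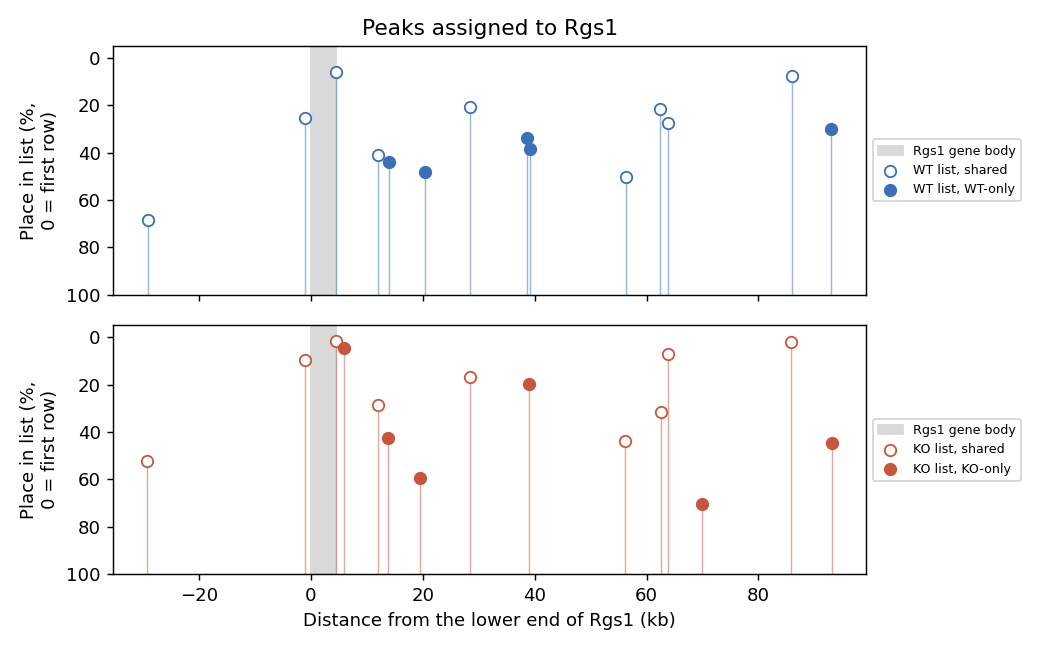
Peaks assigned to Rgs1 in the WT list (upper panel) and the KO list (lower panel), by distance from the lower end of the gene in kb (x axis) and place in the list in percent with the first row at the top (y axis); filled points are genotype-specific, open points shared, and the grey band is the gene body. The KO-only point beside the upper gene end, at 4.62%, has no WT counterpart, and most filled points farther out have a filled point of the other list close by.

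Many of the genotype-specific peaks of the RGS genes lay next to a peak of the other list that they did not overlap. Of the 14 WT-only peaks, 8 (57.1%, 28.9 to 82.3%) had a KO peak within 500 bp, against 19.8% of all WT-only peaks. Of the 11 KO-only peaks, 7 (63.6%, 30.8 to 89.1%) had a WT peak within 500 bp, against 27.9% of all KO-only peaks. These 15 peaks fell into 7 sites, at each of which WT-only and KO-only peaks stood side by side. The WT and KO shares therefore describe the same sites and are not independent, although their intervals count each peak separately. At Rgs1 there were 3 such sites. A KO-only peak (chr1:144337745-144337937) began 3 bp after a WT-only peak (chr1:144337523-144337741), and another pair near 9.34 kb from the gene was 42 bp apart. At the third site a KO-only peak (chr1:144283498-144283690) stood between 2 WT-only peaks, with gaps of 28 and 106 bp. The pair at Rgs2 was 43 bp apart, the pairs at Rgs10 45 and 61 bp, and that at Rgs3 445 bp. The peaks have a set width in each list, 219 bp for WT and 193 bp for KO, and the part of peak placement in these pairs was not tested.

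**Figure D3:**
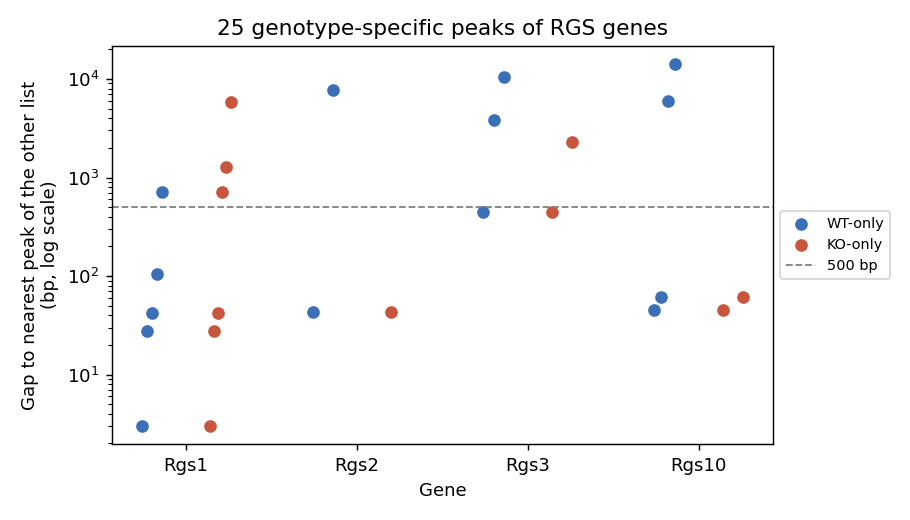
Gap in bp to the nearest peak of the other list (y axis, log scale) for the 25 genotype-specific peaks of Rgs1, Rgs2, Rgs3 and Rgs10 (x axis), WT-only in blue and KO-only in red, with a dashed line at 500 bp. The 15 points below the line are the side-by-side peaks, and the largest gap is 14.2 kb at Rgs10.

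Counting neighbours within 500 bp as shared left 6 of 49 WT peaks (12.2%, against 23.6% of all WT peaks) and 4 of 46 KO peaks (8.7%, against 18.3% of all KO peaks) without a partner. Of the KO-only ones 3 belonged to Rgs1, namely the one beside the gene end, one at chr1:144264125-144264317 (place 59.2%, gap 708 bp) and one at chr1:144314447-144314639 (70.3%, gap 5.8 kb). The fourth, at chr4:62738197-62738389, lay 35.3 kb beyond Rgs3 at 47.4%. The WT-only ones were 2 each at Rgs3 and Rgs10 and 1 each at Rgs1 and Rgs2. Their places ran from 34.1% to 93.8% of the WT list.

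Rgs2, a regulator with preference for Gq-coupled signalling, lies below Rgs1 on the same chromosome (chr1:143999338-144004149, 4812 bp, start site at the upper end). It had 8 WT and 7 KO peaks, of which 6 were shared, 2 WT-only and 1 KO-only. Its promoter peak was the highest-placed peak of all 6 genes in both lists, on row 218 of the WT list (0.57%) and row 299 of the KO list (0.826%). A second shared peak 2.51 kb from the gene stood at 6.44% (WT) and 4.33% (KO). The largest differences in place were at 2 sites inside the noncoding gene Gm41964 next to Rgs2. The peak 57.8 kb from Rgs2 (WT chr1:143941450-143941668) stood at 53.0% of the WT list and 91.2% of the KO list, and the one 6.02 kb away (WT chr1:143993212-143993430) at 46.2% and 94.5%. A WT-only peak at chr1:143985133-143985351 (place 74.0%) lay in the same noncoding gene. Of the 3 WT peaks in Gm41964, 2 thus had KO partners in the last 10% of the KO list and 1 had none. The peaks nearest the Rgs2 start stood near the top of both lists.

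Rgs16, an RGS gene induced on T cell activation, lies farther along chromosome 1 (chr1:153740353-153745468) and had 2 peaks in each list, all shared. The promoter peak shown above stood at 24.9% (WT) and 41.6% (KO). A higher-placed peak lay 16.7 kb before the gene, inside the noncoding gene C230024C17Rik (WT chr1:153723496-153723714), at 2.68% (WT) and 4.63% (KO). Neither list had a peak with its midpoint in the Rgs16 gene body.

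Rgs3, the longest of the 6 genes (143185 bp, chr4:62559835-62703019), gives rise to several isoforms, among them a long one with a PDZ domain. It had 16 WT and 15 KO peaks, of which 12 and 10 lay in the gene body. Of all genes with a peak, 0.585% had at least that many WT peaks and 0.544% at least that many KO peaks. Of its peaks 13 were shared, 3 WT-only and 2 KO-only.

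Of the 13 shared peaks of Rgs3, 7 stood nearer the top in the KO list among the shared peaks (53.8%, against 47.3% over all shared peaks). By place in the whole lists, 5 of the 13 did (38.5%, against 37.9%). Near the first start site, the peaks at chr4:62561445-62561663, chr4:62561999-62562217 and chr4:62583469-62583687 (WT list) stood nearer the top in the WT list, by 13.4, 23.5 and 11.3 points among the shared peaks. Downstream of the internal start, 4 peaks between 62629979 and 62685365 stood nearer the top in the KO list, by 33.1, 31.6, 27.7 and 17.1 points. In the whole lists those 4 peaks had WT places of 29.6%, 28.2%, 31.2% and 33.1%, and KO places of 4.85%, 4.63%, 10.7% and 21.2%. The peak at 28.2% lies inside the noncoding gene Gm52741, which overlaps Rgs3. The last shared peak of the gene body, chr4:62696034-62696252, differed by 0.46 points, at 84.7% (WT) and 84.3% (KO) among the shared peaks. A peak before the internal start, at chr4:62593887-62594105, stood nearer the top in the KO list, by 5.76 points among the shared peaks (21.8% in WT and 16.0% in KO). Beyond the gene the 4 shared peaks were mixed. Among the shared peaks, the one 37.8 kb away stood at 73.5% (WT) and 68.0% (KO), the one at 54.0 kb at 21.2% and 49.3%, the one at 61.2 kb at 64.6% and 68.7%, and the one at 77.7 kb at 46.8% and 65.2%. The grouping of these peaks by position was made after their values were seen and was not tested.

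**Figure D4:**
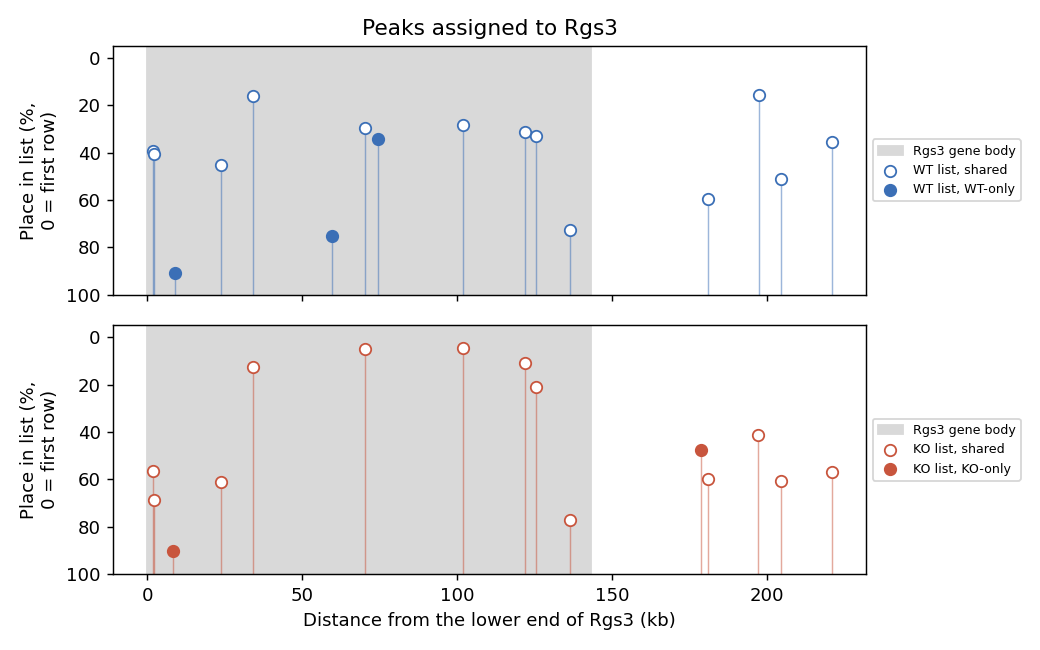
Peaks assigned to Rgs3 in the WT list (upper panel) and the KO list (lower panel), by distance from the lower end of the gene in kb (x axis) and place in the list in percent with the first row at the top (y axis); filled points are genotype-specific, open points shared, and the grey band is the gene body. Of the 5 open points in the second part of the gene body, 4 stand between 4.63% and 21.2% in the KO list and between 28.2% and 33.1% in the WT list, and the last one stands at 77.2% (KO) and 72.5% (WT).

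The WT-only peaks of Rgs3 were all in the gene body. The one at the internal start, chr4:62619337-62619555, stood low in the list at 75.1% and had its nearest KO peak 10.4 kb away. Another, chr4:62634013-62634231, stood at 34.1% with a gap of 3.82 kb, next to the shared peak at 62629979. The last one formed the pair 445 bp apart, with both partners near the end of their lists (90.7% for WT and 90.0% for KO).

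Rgs10, a small RGS protein of T cells and myeloid cells that acts on Gi-type alpha subunits, spans chr7:128373621-128419506. It had 8 WT and 6 KO peaks, all in the gene body except 1 WT peak. WT-only peaks exceeded KO-only peaks by 4 to 2, a surplus of at least 2 that 7.92% of genes with a peak have. That share includes genes with too few peaks for such a surplus. Of all genes with a peak, 52.6% had 2 or more WT peaks and 5.07% had 8 or more. Genes with a number of peaks like that of Rgs10 were not compared. The surplus of Rgs10 was 1 peak within 10 kb of the gene, in the gene body, in the first 50% of each list and with noncoding genes competing for peaks. Of the WT-only peaks, 2 belong to the pairs 45 and 61 bp apart. The other two were at chr7:128398683-128398901 (place 67.2%, gap 6.0 kb) and at chr7:128359847-128360065 (93.8%, gap 14.2 kb), the latter inside the noncoding gene Gm39092. All 4 shared peaks stood nearer the top in the WT list, by 2.1 to 25.1 points among the shared peaks. Of all shared peaks, 47.3% stood nearer the top in the KO list by this measure and 37.9% by place in the whole lists. The largest difference at Rgs10 was at chr7:128374300-128374518 (WT list), near the far end of the gene from the start site. That peak stood at 23.6% (WT) and 48.7% (KO) among the shared peaks, and at 17.4% and 40.8% in the whole lists. The promoter peak stood at 38.7% (WT) and 50.9% (KO) in the whole lists.

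Rgs14, which combines an RGS domain with binding sites for Ras-type GTPases and inactive Gi subunits, had the fewest peaks. Its only peak in each list was shared and lay at the lower gene end (WT chr13:55369679-55369897, KO chr13:55369727-55369919). The place was 30.5% in the WT list and 41.8% in the KO list.

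Over the 6 genes, the 35 shared peaks were split almost evenly, with 17 nearer the top in the KO list (48.6%) and 47.3% over all shared peaks. A difference of at least 20 points towards the KO list was found at 6 of them, 3 each at Rgs1 and Rgs3, where 7.61% of all shared peaks have one. The reverse was found at 5, namely 2 each at Rgs2 and Rgs3 and 1 at Rgs10, where 6.47% of all shared peaks have one. By place in the whole lists the counts were 4 of 35 towards the KO list (1 at Rgs1 and 3 at Rgs3) and 6 towards the WT list. Over all 26975 shared peaks they were 1531 and 2894. Counting all peaks, 8 of the 46 KO peaks (17.4%, 7.8 to 31.4%) stood in the first 5% of their list, 3 at Rgs1, 2 each at Rgs2 and Rgs3 and 1 at Rgs16. In the WT list 2 of the 49 peaks did (4.08%, 0.5 to 14.0%), 1 each at Rgs2 and Rgs16. By construction 5.0% of all peaks do so. These numbers depend on where the cut is set. KO peaks stood just inside it at 4.33% (Rgs2), 4.62% (Rgs1), 4.63% (Rgs3 and Rgs16) and 4.85% (Rgs3). Just outside it stood WT peaks at 6.07% and 7.89% (Rgs1) and 6.44% (Rgs2), and a KO peak at 6.99% (Rgs1). With places taken by peak number within each chromosome, the numbers in the first 5% were 6 (KO) and 2 (WT).

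**Figure D5:**
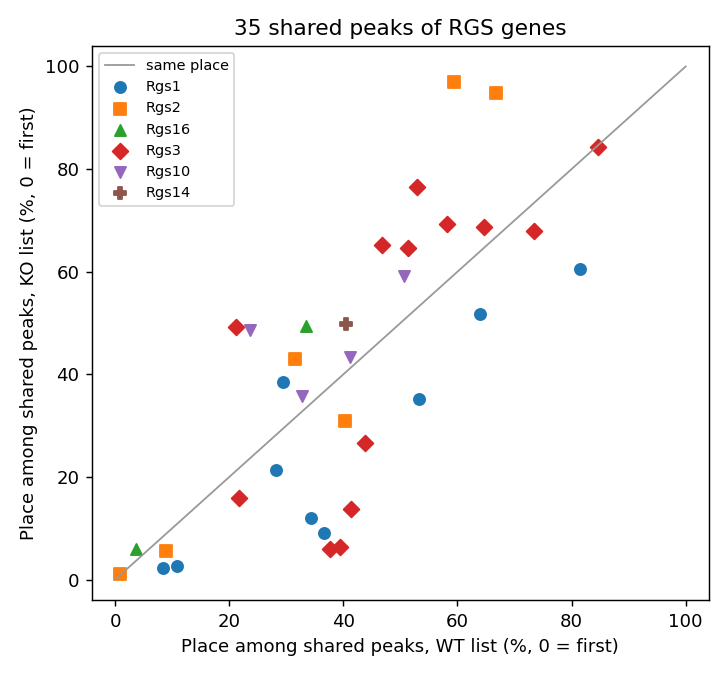
Place among the shared peaks of the WT list (x axis, percent from the top) and of the KO list (y axis) for the 35 shared peaks of the RGS genes, with the line of equal place in grey. Points below the line stand nearer the top in the KO list: 8 of the 9 Rgs1 points lie there, and 0 of the 4 Rgs10 points do.

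The limit of 100 kb left out peaks in the gene-poor stretches beyond Rgs1 and Rgs3. The farthest WT peak counted at Rgs1 lay 88.5 kb away and was not shared. The nearest one left out lay 107.0 kb away, was shared, and stood at 64.8% of the WT list and 26.6% of the KO list. At Rgs3 the corresponding peaks lay at 77.7 kb and 103.0 kb, both shared, and the one left out stood at 56.1% (WT) and 61.9% (KO).

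The counts per gene were compared with those of other genes. No other gene had the numbers of WT-only, KO-only and shared peaks of Rgs1 or of Rgs3. Genes with at least as many WT peaks numbered only 142 for Rgs1 and 85 for Rgs3, themselves included, so few genes could match. The numbers of Rgs10 (4, 2 and 4) were also those of Arap2, Babam2, Elovl5, Man1a2 and Stard3nl, those of Rgs2 were found at 17 other genes and those of Rgs16 at 1324.

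Among 15 other RGS genes, 10 had a peak, with more KO-only peaks at 4 and more WT-only peaks at 2. Over all protein-coding genes, 14523 of 21900 had a peak. Of these, 20.2% had more KO-only and 26.7% more WT-only peaks. Rgs9, of the R7 group known from retina and brain, had 5 KO-only against 1 WT-only peaks, and Rgs17 had 2 WT-only peaks and no other. Rgs13, between Rgs2 and Rgs1, had 6 peaks in each list, 2 of them genotype-specific on either side. The genes Rgs4, Rgs5, Rgs6, Rgs7 and Rgs20 had 0 peaks in both lists.

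The partners of RGS proteins showed no common direction. Their counts stand beside the same shares over all genes with a peak, 20.2% with more KO-only and 26.7% with more WT-only peaks. All 12 genes of G alpha subunits had a peak, with more KO-only peaks at 3 and more WT-only peaks at 2, and Gnai2, the main Gi subunit of lymphocytes, had 4 shared peaks only. Of 16 genes of G beta and gamma subunits 10 had a peak, with 3 in each direction. Gng2 had 4 KO-only against 1 WT-only peaks and Gnb1 2 against 0, whereas Gnb4 had 0 against 4 and Gng12 3 against 5. Of 20 receptor genes of T cell migration 19 had a peak, with 6 in each direction. Gpr15, a receptor for homing to the colon, had 3 KO-only against 1 WT-only peaks. The chemokine receptor genes Ccr2 and Cxcr5 had 0 against 2, and S1pr1, the egress receptor, 2 against 4. Among 17 genes of GRK kinases, arrestins and other regulators 16 had a peak, with more KO-only peaks at 5 and more WT-only peaks at 4. The receptor kinase genes Grk5 and Grk2 had 3 and 2 KO-only peaks and 0 WT-only peaks, and the sorting nexin gene Snx13 had 1 against 3. The median of KO-only minus WT-only peaks was 0.0 in each of these lists and over all genes with a peak, and -0.5 over the 6 genes described.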

How the data were processed

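ATAC-seq peaks of Treg cells were analysed, with 3 samples per group and 1 deposited peak list per group, per the labels. The submitters' processing notes name HISAT2 2.1.0, HOMER 4.10.1, SAMtools 1.3, cutadapt 1.12, Trim Galore 0.4.2, FastQC, deepTools and build mm10. What each tool did, the peak threshold, any transposase shift and how replicates were joined are details not given in the sources used. The score that the authors deposited is 1 in every row, so it gives no height. Row order followed peak numbers (Spearman correlation per chromosome, across peaks, 0.998).

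Overlaps, gene assignment (gene bodies first, then the nearest end within 100 kb) and shares with exact Clopper-Pearson intervals (counting error only) used scipy 1.17.1, pandas 2.3.3 and numpy 2.4.6 under Python 3.11.15, and figures matplotlib 3.10.9. The overlap code was tested on simulated data of 800 peaks per list against bedtools 2.31.1, with 0 differences. Genes came from a RefSeq table of GRCm38.p6 without exons, and no genome sequence was used, so that peaks outside promoters have no sequence here. No test across replicates was possible and none was made. The members, lists and motifs were chosen with earlier results of these data known. Genes outside the 6 are named where, in a list, KO-only and WT-only peaks differ by at least 2 (up to 3 per direction), where they adjoin a member's peaks or where their 3 counts are the same. Gnai2, Rgs4, Rgs5, Rgs6, Rgs7 and Rgs20 were named after their values were seen. The count of 1 marker list is not reported here. Alternatives covered the overlap rule, peak width, list depth and gene assignment.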

Additional observations from a re-analysis of the deposited data

How the results depend on the processing

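The counts over the 6 RGS genes (14 WT-only, 11 KO-only and 35 shared WT peaks) stayed within 1.5 times of these values with an overlap of at least 50% of both peaks, with all peaks resized to 200 bp and with assignment to the nearest gene end regardless of gene bodies. Counting peaks within 500 bp as shared gave 6 WT-only, 4 KO-only and 43 shared WT peaks, which moves peaks between classes and drops none. The first 50% of each list gave 9, 7 and 30. The WT-only, KO-only and shared counts were 7, 5 and 21 for peaks within 10 kb of the gene, 6, 3 and 14 in gene bodies, and 8, 6 and 21 with noncoding genes competing for peaks. Apart from the 500 bp rule, each of these settings counts fewer peaks by construction. KO-only minus WT-only peaks at Rgs1 turned from 1 to -1 in the first 50% of each list, was 2 with the 500 bp gap and was 0 in gene bodies, where Rgs1 has no peak. At the other 5 genes no difference changed sign under the 8 alternatives tried, although it became 0 at Rgs2 under 4 of them and at Rgs3 under 1. The alternatives for places in the lists were chosen after seeing the data. No paired analysis was possible because each group has 1 list for its 3 samples. For the same reason no replicate could be left out.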
